A study of Mus musculus with 8 samples.

Results

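DNA-RNA immunoprecipitation sequencing (DRIP-seq) of mouse muscle stem cells (MuSCs) gave 28265 union peaks. Of these, 984 scored lower in every library of the mutant than in any control library. These consistently weaker peaks were chosen by their own scores. A peak had to be autosomal, to have a mean score over 30 across the 6 libraries, and to have its highest score in the 3 knockout libraries below its lowest score in the 3 control libraries. Of 25815 autosomal peaks that passed the level filter, called tested peaks from here on, 984 (3.81%) met the rule, and 10722 (41.5%) met its mirror image, with every knockout library above every control library. Since the genotype contrast selected the peaks, scores and fold changes of the 2 genotypes are given as a description of the selection and carry no test. A complete separation of 3 from 3 libraries, in either direction, has a two-sided permutation p of 0.1, so it is not rare without any difference between genotypes. Meeting the rule therefore does not show a loss at a single peak. All 984 peaks passed the level filter because the rule contains it, and 22 further autosomal peaks met the separation but had a mean score of 30 or less.

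MuSCs are the Pax7-expressing stem cells that lie along muscle fibres and rebuild them after injury. Control cells (Ctrl) carried Pax7CreERT with wild type Suv4-20h1 alleles, and knockout cells (Kmt5b sKO) carried the same Pax7CreERT driver with Suv4-20h1 inactivated. Suv4-20h1 is an older name of Kmt5b, the methyltransferase that adds the second methyl group to lysine 20 of histone H4. Both genotypes therefore shared the tamoxifen-inducible Cre driven from Pax7, and the mice were adults on a C57BL/6 background that had been given tamoxifen. Cells were enriched magnetically from limb and trunk muscle and grown in culture with serum, LIF and bFGF before DNA was taken, so the libraries describe cultured cells and not quiescent MuSCs in the tissue. Each genotype had 3 libraries made with the S9.6 antibody. The single input library per genotype served the authors' peak calling and has no score here.

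R-loops form where a nascent transcript pairs with its template strand and displaces the other DNA strand. S9.6 binds the RNA:DNA hybrid, so DRIP-seq reads mark genes that are being transcribed and in which hybrids persist. G clusters on the displaced strand, which has the sequence of the RNA, are known to favour R-loops, and hybrids often lie over gene ends as well as over starts. A score in this table is the S9.6 signal summed over the whole peak, scaled by a Drosophila spike-in, and it grows with peak length. In bulk cells a lower score can come from fewer cells with the hybrid or from less hybrid in each cell, and these cannot be told apart.

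The sequences below come from the peak with the largest loss in each of the 6 genes with most weaker peaks outside chromosomes 8 and 18. A peak has 1 score over its whole length, so the sequences do not show where in the peak signal was lower. Each is the central 300 bases of the gene's peak with the largest loss, read 5′ to 3′ on the strand of the gene as annotated in the table (GRCm38 reference sequence from RefSeq), with runs of 3 or more G in capitals.
Ttn, chr2:76748851-76749150, minus strand, exon: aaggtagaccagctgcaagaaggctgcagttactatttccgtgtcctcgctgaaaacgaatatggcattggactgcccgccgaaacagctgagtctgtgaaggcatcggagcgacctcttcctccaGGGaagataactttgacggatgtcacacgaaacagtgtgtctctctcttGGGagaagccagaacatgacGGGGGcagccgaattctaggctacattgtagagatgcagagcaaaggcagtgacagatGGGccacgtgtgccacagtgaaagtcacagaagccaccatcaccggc
Chchd3, chr6:32879551-32879850, minus strand, intron: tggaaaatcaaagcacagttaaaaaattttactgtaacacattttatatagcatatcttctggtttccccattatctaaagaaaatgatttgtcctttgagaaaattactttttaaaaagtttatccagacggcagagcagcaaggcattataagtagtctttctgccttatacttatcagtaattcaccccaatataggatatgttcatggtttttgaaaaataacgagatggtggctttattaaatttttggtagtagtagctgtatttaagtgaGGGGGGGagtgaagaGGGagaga
Sntb1, chr15:55870051-55870350, minus strand, intron: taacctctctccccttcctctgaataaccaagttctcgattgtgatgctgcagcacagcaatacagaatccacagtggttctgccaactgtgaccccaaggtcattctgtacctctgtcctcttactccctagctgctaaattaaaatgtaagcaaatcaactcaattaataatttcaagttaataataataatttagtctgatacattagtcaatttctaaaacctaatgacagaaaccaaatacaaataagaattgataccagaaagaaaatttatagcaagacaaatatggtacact
Pde4d, chr13:109941651-109941950, plus strand, intron: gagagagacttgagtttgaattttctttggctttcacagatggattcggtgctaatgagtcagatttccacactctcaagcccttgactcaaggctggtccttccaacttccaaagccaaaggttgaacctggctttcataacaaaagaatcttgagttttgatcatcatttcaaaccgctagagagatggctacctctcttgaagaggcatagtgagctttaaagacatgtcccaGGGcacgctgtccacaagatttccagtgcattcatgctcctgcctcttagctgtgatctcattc
Ephb2, chr4:136800451-136800750, minus strand, intron: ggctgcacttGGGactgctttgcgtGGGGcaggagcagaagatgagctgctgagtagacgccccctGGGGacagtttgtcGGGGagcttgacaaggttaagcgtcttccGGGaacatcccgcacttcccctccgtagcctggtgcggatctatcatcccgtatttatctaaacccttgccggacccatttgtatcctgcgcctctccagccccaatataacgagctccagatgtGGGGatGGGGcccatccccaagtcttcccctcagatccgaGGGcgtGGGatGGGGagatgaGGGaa
Fgfr2 model, chr7:131564151-131564450, minus strand, intron: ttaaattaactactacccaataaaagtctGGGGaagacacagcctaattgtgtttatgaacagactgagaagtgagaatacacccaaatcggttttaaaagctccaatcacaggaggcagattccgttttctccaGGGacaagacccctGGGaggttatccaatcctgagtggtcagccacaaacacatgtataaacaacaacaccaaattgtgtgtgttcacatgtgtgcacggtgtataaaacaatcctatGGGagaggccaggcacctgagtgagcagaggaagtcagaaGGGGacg
The Ttn window lay wholly in an exon and the other 5 contained no exon base of the gene they fell in. They held 4, 2, 0, 1, 11 and 5 G runs in the order printed, and GC content ranged from 33.3% in Chchd3 to 58.7% in Ephb2. The Fgfr2 model of the table spans 2961 kb and 29 other coding genes, and its window lies inside Bub3, which GENCODE places on the plus strand, so the letters printed there are those of the strand opposite to the Bub3 transcript. Counted on the gene strand without overlap, at least 1 run of GGG or longer was present in the central 300 bases of 90.8% of the 967 weaker peaks with a gene and of 91.1% of all 21757 tested peaks with a gene. Nearly every central window of either kind held one, so the runs printed above are a description of these windows and do not set weaker peaks apart.

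Total scores differed between libraries. The score over the whole table, divided by 1e+06, came to 3.91, 4.73 and 3.89 for Ctrl and to 4.70, 4.93 and 4.78 for Kmt5b sKO. Ctrl replicates 1 and 3 thus lay below all other libraries, and giving every library the same total raised the number of weaker peaks to 3568. Ctrl replicate 2 stood apart from the other Ctrl libraries. It had the highest Ctrl score in 854 of the 984 weaker peaks (86.8%) and in 60.6% of tested peaks, and the lowest in 45 weaker peaks. Membership in the set was therefore set mostly by Ctrl replicates 1 and 3, which were the lowest Ctrl library in 447 and 492 weaker peaks. With Ctrl replicate 2 left out, the rule gave 1020 peaks, of which 972 were among the 984. Leaving out Ctrl replicate 1, Ctrl replicate 3 or Kmt5b sKO replicate 2, which leaves fewer libraries to separate, gave 1585, 1517 and 1559 peaks. The targeted gene held 1 tested peak, chr19:3805200-3815599, with scores of 412, 658 and 420 in Ctrl and 440, 449 and 484 in Kmt5b sKO. The groups overlapped there, the peak was not one of the 984, and an S9.6 signal over the gene body does not show whether the targeted exon was lost.

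The losses were moderate. The median log2 fold change of the 984 peaks was −0.40 on the log2(score + 1) scale, with an interquartile range from −0.54 to −0.30 and extremes of −1.52 and −0.07. The median tested peak moved the other way, by 0.35, so that relative to it the median weaker peak lay at −0.75. How many peaks were weaker depended on that scale. After centring each library on its median tested peak, which lowered the median tested peak by 0.46, 7640 peaks were weaker and 3841 higher, with all 984 among the former. A loss of more than 1.5-fold was seen in 199 peaks and of more than 2-fold in 14. Weaker peaks held 12.7%, 13.1% and 12.5% of the score over tested peaks in the Ctrl libraries, against 8.55%, 8.46% and 8.54% in Kmt5b sKO. Of all tested peaks 228 (0.883%) passed limma at an adjusted p under 0.1 with a loss over 1.5-fold, and 186 of these were among the 984, or 18.9% of the weaker peaks. The fit used the same 6 scores as the rule, so this overlap follows from the selection and lends the set no support. Without Ctrl replicate 2 there were 82 such calls, 73 of them among the 984. The remaining 798 met the rule through separated groups with a fold or a limma p short of these thresholds.

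The edge of the rule was narrow. For the median weaker peak the highest Kmt5b sKO score was 0.924 of the lowest Ctrl score, and 620 of the 984 were at 0.9 or above. Just inside, a 21.2 kb peak in Txnl1 scored 733, 913 and 683 in Ctrl against 655, 682 and 655 in Kmt5b sKO, and a 21.6 kb peak in Dab2ip scored 651, 773 and 639 against 459, 638 and 499. Just outside, a peak of 11.4 kb in Hsp90b1 scored 524, 756 and 582 in Ctrl against 524, 492 and 508 in Kmt5b sKO, and one of 15.6 kb in Trp53bp1, the gene of the DNA repair factor 53BP1, scored 576, 645 and 545 against 540, 485 and 545. In all, 61 tested peaks missed the rule through a tie of this kind. At the level filter, a 0.8 kb peak in Ppp2r2a with a mean of 30.7 was kept, and a 1.0 kb peak in Mcm2, a subunit of the replicative helicase, with a mean of 29.5 (40, 38 and 37 against 22, 17 and 23) was not.

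Consistently weaker peaks were long. Their median length was 7.80 kb (95% interval 7.0 to 8.60 kb), against 2.40 kb for the other tested peaks, and 42.6% of them against 8.85% were 10 kb or longer. They spanned 12.2 Mb, or 10.5% of the sequence in tested peaks. The share of tested peaks that met the rule rose through the 10 length classes, from 5 of 3566 peaks of at most 1 kb (0.140%, Wilson 95% interval 0.0599% to 0.328%) to 409 of 2548 peaks over 10 kb (16.1%, 14.7% to 17.5%). Peaks higher in every Kmt5b sKO library ran the opposite way, from 69.9% of the shortest class to 16.7% of the longest.

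**Figure D1:**
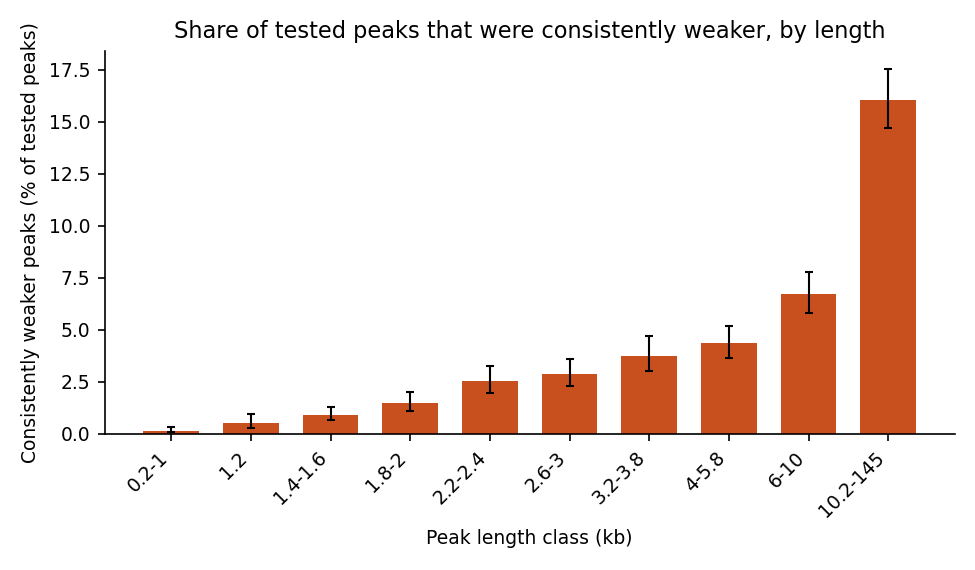
Share of tested peaks that were consistently weaker (y axis, percent) in 10 classes of peak length (x axis, kb), with Wilson 95% intervals as error bars that cover counting error only. The share climbed at each step, from 0.140% in the shortest class to 16.1% in the longest.

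Length and score are tied in this table, and the share rose with score as it did with length. It was 1.35% in the lowest and 14.3% in the highest of 10 classes of mean score, whose median peak lengths were 0.8 kb and 15.6 kb. The median log2 fold change of tested peaks also fell with length, from 0.91 in the shortest length class to 0.005 in the longest. A score is a sum, so small peaks can have noisier values. The parts of noise and of this trend in the length difference were not tested. Against other tested peaks weighted to the same mean scores, the median length was 7.80 kb for weaker peaks and 6.20 kb for the rest. Position and composition were for this reason compared with other tested peaks weighted to the lengths of the weaker peaks.

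Weaker peaks lay inside genes. Of the 984, 967 had a gene in the table and 957 a protein-coding one. The centre of 927 peaks (94.2%, Wilson 95% interval 92.6% to 95.5%) was in a gene body, over 1 kb from the transcription start site (TSS), against 91.5% of other tested peaks of the same lengths and 79.9% of other tested peaks of any length. Intergenic peaks were 1.73% (1.08% to 2.75%) of weaker peaks and 4.43% of those of like length. A peak overlapped the TSS of its gene in 17 cases, or 1.73%, against 2.76% at like length, and the end of its gene in 219 cases (22.3%, 19.8% to 24.96%), against 20.0%. The gene body and intergenic shares differed from those of peaks of like length by more than counting error, whereas the share over gene ends was within it. Set against other tested peaks of like mean score, of which 19.1% overlapped the gene end and 87.3% were in gene bodies, the gene end share differed by more than counting error as well. Those peaks were shorter than weaker peaks, with a median of 6200 bp against 7800 bp, so length was not matched there. Among peaks with a mean score over 100 the gene body shares were 94.6% and 94.96%.

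Along the gene, the centres of weaker gene body peaks had a median relative position of 0.60 (95% interval 0.57 to 0.62), where 0 is the TSS and 1 the gene end. Peaks of like length had 0.57, a value inside that interval. With the gene cut into 10 equal parts, the last part held 146 weaker peaks, or 15.7% (13.6% to 18.2%), against 13.3% at like length, and the first part held 49, or 5.29% (4.02% to 6.92%), against 5.16%. The genes of weaker gene body peaks had a median length of 92.0 kb (84.8 to 101.6 kb) against 79.1 kb, and the distance from TSS to peak centre was 42.2 kb (38.2 to 47.4 kb) against 34.6 kb. Weaker peaks therefore lay further from the start in base pairs, in longer genes. With the gene cut into 4 equal parts, the last held 31.2% (28.4% to 34.2%) of all 984 weaker peaks against 27.8% at like length, and the first 15.8% (13.6% to 18.2%) against 16.7%. The share in the last of the 10 parts, taken over gene body peaks, was above that of peaks of like length by slightly more than counting error. The share in the last of the 4 parts was above it too, but was taken over all peaks. More of the weaker peaks lay in gene bodies (94.2% against 91.5%), and this difference enters that share. The median position and the share in the first part by either division were within counting error.

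**Figure D2:**
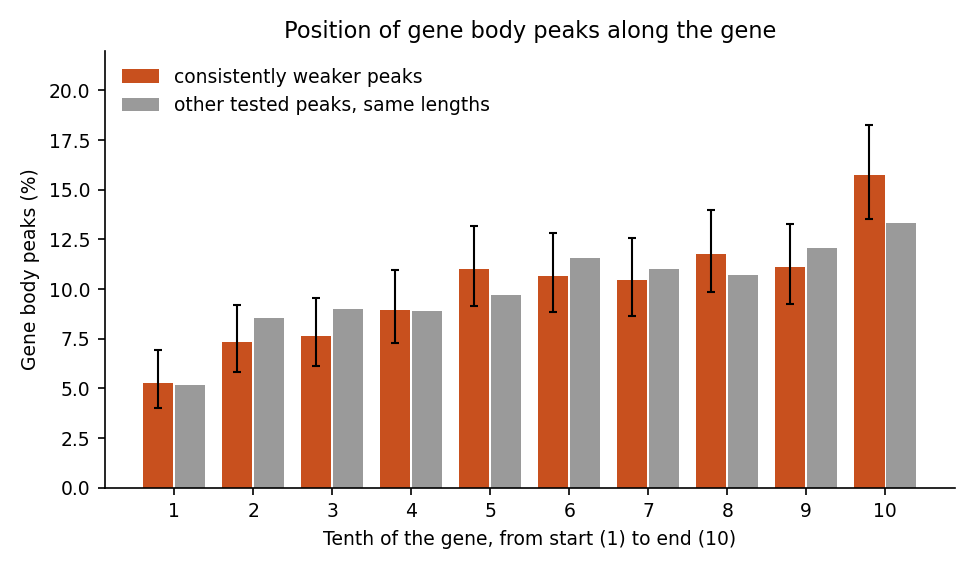
Percent of gene body peaks (y axis) in 10 equal parts of the gene from start to end (x axis), for consistently weaker peaks (orange, with Wilson 95% intervals) and other tested peaks weighted to the same lengths (grey). Both rose toward the gene end, to 15.7% and 13.3% in the last part.

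Exons and sequence composition differed little. A median of 5.51% (4.54% to 7.04%) of the bases of a weaker peak were exonic, against 4.45% at like length, and 30.3% (27.5% to 33.2%) touched no exon, against 35.2%. GC content was 42.8% (42.5% to 43.1%) against 43.7%, soft-masked repeat sequence 18.1% (17.6% to 18.5%) against 21.1%, and runs of GGG or longer on the gene strand numbered 10.2 per kb (10 to 10.5) against 11.2 per kb. These gaps exceeded the intervals of the medians, which treat peaks as independent although 46.3% of them shared a gene with another. The Ctrl score per kb, which the selection could influence, was 33.8 (33.0 to 34.3) in weaker peaks and 31.7 at like length.

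Weaker peaks occurred next to each other. The next tested peak after a weaker peak was itself weaker in 16.8% of cases, against 3.30% after any other tested peak. This comparison was not weighted to peak length, with which the share of weaker peaks rose. A weaker peak as a direct neighbour was found for 285 of the 984 (29.0%). There were 120 runs of 2 or more, and the median gap within a run was 1.4 kb. Since the peak caller could split one domain into several peaks, neighbours are not independent observations. The longest run held 8 peaks of Ttn over 145.0 kb, followed by 5 peaks of Fndc1 over 40.8 kb and 5 of Ephb2 over 43.6 kb. A run of 4 peaks joined Rhobtb1 and Cdk1 across 68.4 kb of chromosome 10. On single chromosomes the share of weaker peaks ranged from 2.68% (chromosome 11) to 5.54% (chromosome 18).

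By the genes of the table, 671 of 7987 genes with a tested peak held at least 1 weaker peak, 160 held 2 or more, 58 held 3 or more and 16 held 5 or more. The 160 genes carried 456 of the 984 peaks (46.3%), and 159 of them were protein-coding. Their median length was 123.1 kb, against 48.0 kb for genes with 1 weaker peak and 32.1 kb for genes with none. Long genes held more tested peaks, with a median of 7 in the 160 genes and 1 in genes with none. Other genes weighted to the same number of tested peaks had a median length of 113.6 kb, so most of the length difference went with the number of peaks. In 12 of the 160 every tested peak was weaker, in 52 at least 50% were, and in 67 (41.9%) at least 1 peak was higher in every Kmt5b sKO library.

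**Figure D3:**
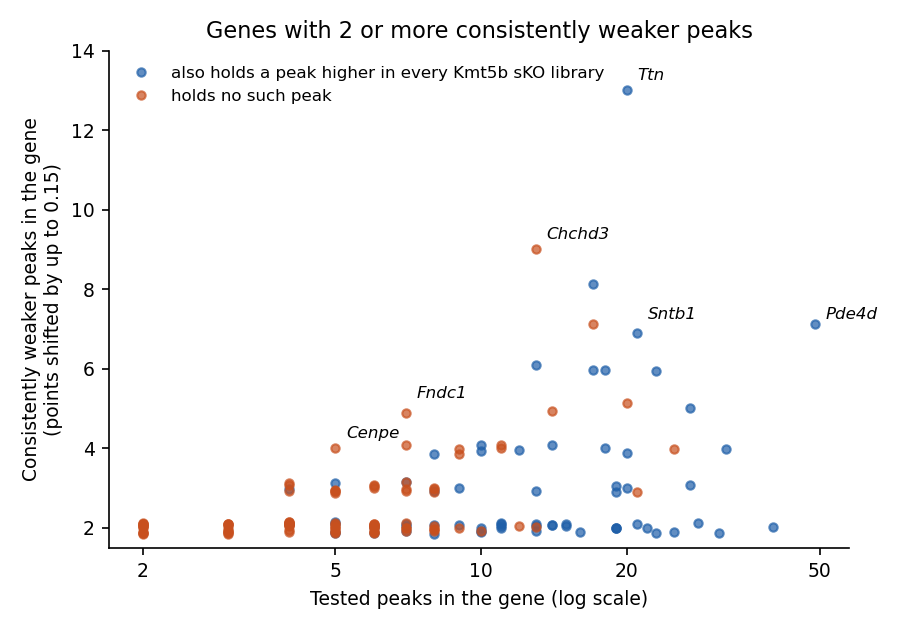
Number of consistently weaker peaks (y axis) against the number of tested peaks (x axis, log scale) for genes with 2 or more weaker peaks, each point 1 gene, without the 2 gene models that span many genes. Blue genes also held a peak higher in every Kmt5b sKO library, and Ttn is one of them. Ttn (13 of 20), Chchd3 (9 of 13), Fndc1 (5 of 7) and Cenpe (4 of 5) were weaker over most of their peaks.

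Within a gene the weaker peaks were the long ones. In the 148 of these genes that also had other tested peaks, the median weaker peak was longer than the median other peak in 126 and shorter in 21. It lay nearer the gene end in 86 and nearer the start in 60, and had a larger exonic share in 84 and a smaller one in 28. These counts were not matched for peak length, with which both measures changed. Over tested peaks that were not weaker, the median exonic share was 0% in the shortest length class and 8.38% in the longest. Their median relative position was 0.48 and 0.60. The other peaks of these genes were on balance level, with a median over genes of −0.02 for their median log2 fold change and 80 of 148 genes below 0. Of the 1725 tested peaks in the 160 genes, 215 (12.5%) were higher in every Kmt5b sKO library, against 41.5% of all tested peaks. Without the 456 weaker peaks, which the selection bars from that class, the share was 16.9% of 1269, against 38.9% of other tested peaks of the same lengths outside these genes. This is the contrast that chose the genes, and it is given as a description.

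Ttn, the gene of the giant sarcomere protein titin, led with 13 weaker peaks of 20, which summed to 6709, 10594 and 7466 in Ctrl and 4592, 4753 and 4686 in Kmt5b sKO. The peaks are given from the gene end, on the left of the plus strand, towards the start.
The 35.4 kb peak at chr2:76697600-76732999 scored 1352, 2258 and 1437 in Ctrl and 906, 942 and 897 in Kmt5b sKO. The 25.2 kb peak at chr2:76736400-76761599 scored 1295, 2062 and 1451 in Ctrl and 608, 745 and 676 in Kmt5b sKO. The latter had the largest loss in the gene, a log2 fold change of −1.22. The 1.8 kb peak at chr2:76762400-76764199 scored 39, 67 and 41 in Ctrl and 30, 22 and 37 in Kmt5b sKO. The 18.2 kb peak at chr2:76764600-76782799 scored 517, 973 and 624 in Ctrl and 444, 426 and 461 in Kmt5b sKO. The 21.2 kb peak at chr2:76784200-76805399 scored 565, 886 and 677 in Ctrl and 503, 557 and 462 in Kmt5b sKO. Here the gap between the groups was small, with Kmt5b sKO replicate 2 just below Ctrl replicate 1. The 10.4 kb peak at chr2:76808000-76818399 scored 305, 469 and 367 in Ctrl and 254, 242 and 246 in Kmt5b sKO. The 5.8 kb peak at chr2:76822600-76828399 scored 180, 248 and 207 in Ctrl and 168, 179 and 164 in Kmt5b sKO. The 2.4 kb peak at chr2:76840200-76842599 scored 55, 92 and 81 in Ctrl and 53, 39 and 52 in Kmt5b sKO. The last pair were short peaks whose groups barely separated. The 6.4 kb peak at chr2:76878600-76884999 scored 151, 252 and 204 in Ctrl and 128, 130 and 125 in Kmt5b sKO. The 1.8 kb peak at chr2:76890800-76892599 scored 30, 68 and 34 in Ctrl and 27, 28 and 29 in Kmt5b sKO. The 18.8 kb peak at chr2:76914000-76932799 scored 936, 1355 and 945 in Ctrl and 648, 562 and 637 in Kmt5b sKO. The last of these opened a stretch next to the gene start in which the groups were far apart. The 21.4 kb peak at chr2:76933600-76954999 scored 696, 1013 and 775 in Ctrl and 487, 472 and 468 in Kmt5b sKO. The 15.6 kb peak at chr2:76962200-76977799 scored 588, 851 and 623 in Ctrl and 336, 409 and 432 in Kmt5b sKO. One Ttn peak of 2.2 kb near the middle of the gene went the other way, higher in every Kmt5b sKO library with a log2 fold change of 0.19. In all 13 weaker peaks the highest Ctrl score was that of replicate 2. A median of 39.3% of the bases of these peaks were exonic, against 20.5% in the other Ttn peaks. The 2 kinds were of unlike length, with medians of 15600 bp and 1400 bp.

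The second entry by number was not a single gene. The table assigned 9 weaker peaks of 126 to Galnt2 through an identifier that GENCODE calls Gm20388, a 4435 kb readthrough model on chromosome 8 that contains 71 other coding genes. By the coding gene with the longest overlap, 3 of the 9 fell in Gse1, 1 in Banp and 1 in Slc7a5, while 4 stayed with the model.
The 3.8 kb peak at chr8:120161600-120165399 scored 112, 107 and 99 in Ctrl and 88, 71 and 86 in Kmt5b sKO. The 3.8 kb peak at chr8:120297000-120300799 scored 171, 192 and 169 in Ctrl and 134, 163 and 134 in Kmt5b sKO. The 1.2 kb peak at chr8:120344200-120345399 scored 44, 57 and 39 in Ctrl and 24, 31 and 34 in Kmt5b sKO. The second of these scored the most of the 3 and the shortest the least. The 5.6 kb peak at chr8:120409000-120414599 scored 127, 145 and 162 in Ctrl and 121, 121 and 122 in Kmt5b sKO. The 6 kb peak at chr8:121837600-121843599 scored 229, 256 and 233 in Ctrl and 154, 132 and 203 in Kmt5b sKO. The 6 kb peak at chr8:121878400-121884399 scored 213, 222 and 210 in Ctrl and 196, 153 and 143 in Kmt5b sKO. In the fourth of the 9, the Kmt5b sKO libraries were almost equal. The 9.6 kb peak at chr8:121892400-121901999 scored 331, 364 and 284 in Ctrl and 275, 234 and 243 in Kmt5b sKO. The 3.2 kb peak at chr8:122011400-122014599 scored 75, 99 and 73 in Ctrl and 67, 60 and 70 in Kmt5b sKO. The 23.4 kb peak at chr8:122848600-122871999 scored 1396, 1943 and 1351 in Ctrl and 982, 993 and 1036 in Kmt5b sKO. The last of these was the longest and had the widest gap between groups. The Fgfr2 model raised the same difficulty, since its 7 weaker peaks were spread over Ctbp2 (3), Bub3, Pstk, 2310057M21Rik and Fgfr2 (1 each).

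Chchd3 encodes a subunit of the complex that shapes the cristae of mitochondria. Weaker peaks made up 9 of its 13 tested peaks, covered 162.0 kb of a 269.3 kb gene, and summed to 5742, 7594 and 5988 in Ctrl and 4835, 4888 and 4820 in Kmt5b sKO.
The 30.2 kb peak at chr6:32787200-32817399 scored 1048, 1341 and 1129 in Ctrl and 844, 846 and 831 in Kmt5b sKO. The 26.2 kb peak at chr6:32825800-32851999 scored 932, 1147 and 915 in Ctrl and 828, 817 and 880 in Kmt5b sKO. The 8.4 kb peak at chr6:32859200-32867599 scored 294, 418 and 291 in Ctrl and 256, 213 and 232 in Kmt5b sKO. Of these the middle one changed least. The 21.4 kb peak at chr6:32869000-32890399 scored 850, 1107 and 876 in Ctrl and 622, 610 and 641 in Kmt5b sKO. The 22.2 kb peak at chr6:32909800-32931999 scored 854, 1177 and 894 in Ctrl and 797, 819 and 697 in Kmt5b sKO. The 21.4 kb peak at chr6:32965600-32986999 scored 643, 866 and 710 in Ctrl and 597, 567 and 545 in Kmt5b sKO. The first of this group, whose centre is printed above, had the largest loss in the gene. The 2.4 kb peak at chr6:33000000-33002399 scored 61, 57 and 62 in Ctrl and 47, 54 and 45 in Kmt5b sKO. The 5.6 kb peak at chr6:33003000-33008599 scored 134, 180 and 167 in Ctrl and 99, 129 and 107 in Kmt5b sKO. The 24.2 kb peak at chr6:33031400-33055599 scored 926, 1301 and 944 in Ctrl and 745, 833 and 842 in Kmt5b sKO. No Chchd3 peak was higher in every Kmt5b sKO library, and the fold changes of the 9 averaged −0.41 on the log2 scale.

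Zfp521, named Znf521 in the table, encodes a zinc finger protein that acts as a transcriptional co-factor in progenitor cells. Of 17 tested peaks 8 were weaker and 1 was higher in every Kmt5b sKO library.
The 3 kb peak at chr18:13767200-13770199 scored 75, 75 and 55 in Ctrl and 42, 28 and 24 in Kmt5b sKO. The 3.6 kb peak at chr18:13789200-13792799 scored 79, 79 and 83 in Ctrl and 68, 53 and 73 in Kmt5b sKO. The 19.2 kb peak at chr18:13827400-13846599 scored 519, 635 and 542 in Ctrl and 402, 424 and 471 in Kmt5b sKO. The first of these lay nearest the gene end among the 8 and had the largest loss in the gene. The 2.6 kb peak at chr18:13866800-13869399 scored 79, 79 and 70 in Ctrl and 53, 59 and 61 in Kmt5b sKO. The 6.6 kb peak at chr18:13869800-13876399 scored 205, 233 and 181 in Ctrl and 139, 152 and 130 in Kmt5b sKO. The 18 kb peak at chr18:13907400-13925399 scored 593, 704 and 612 in Ctrl and 592, 510 and 578 in Kmt5b sKO. The last, of 18 kb, was among the peaks closest to the edge of the rule, with 592 in Kmt5b sKO replicate 1 and 593 in Ctrl replicate 1. The 1.2 kb peak at chr18:13959400-13960599 scored 45, 42 and 37 in Ctrl and 27, 27 and 13 in Kmt5b sKO. The 12.2 kb peak at chr18:13960800-13972999 scored 437, 581 and 452 in Ctrl and 381, 428 and 385 in Kmt5b sKO. Scores in this gene varied less among Ctrl libraries than in Ttn.

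Sntb1 encodes beta-1-syntrophin, an adaptor of the dystrophin complex at the muscle membrane, and 7 of its 21 tested peaks were weaker.
The 10.8 kb peak at chr15:55659400-55670199 scored 267, 514 and 342 in Ctrl and 229, 261 and 190 in Kmt5b sKO. The 18 kb peak at chr15:55684800-55702799 scored 505, 707 and 561 in Ctrl and 421, 431 and 379 in Kmt5b sKO. The 15 kb peak at chr15:55703600-55718599 scored 443, 681 and 504 in Ctrl and 343, 375 and 322 in Kmt5b sKO. Ctrl replicate 2 was the highest library throughout. The 6.6 kb peak at chr15:55727600-55734199 scored 165, 278 and 193 in Ctrl and 153, 118 and 137 in Kmt5b sKO. The 19.8 kb peak at chr15:55766000-55785799 scored 489, 827 and 544 in Ctrl and 478, 481 and 438 in Kmt5b sKO. The 2.8 kb peak at chr15:55868800-55871599 scored 48, 118 and 81 in Ctrl and 42, 38 and 27 in Kmt5b sKO. The last, of 2.8 kb, had the largest loss in the gene, and it is the window above that holds no G run. The 23.6 kb peak at chr15:55882800-55906399 scored 616, 1477 and 891 in Ctrl and 548, 573 and 582 in Kmt5b sKO. In that final peak Ctrl replicate 2 was far above Ctrl replicates 1 and 3, and Ctrl replicate 1 lay just above the Kmt5b sKO libraries.

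Pde4d encodes a phosphodiesterase that degrades cyclic AMP. Its 7 weaker peaks of 49 lay in the part of a 1504 kb gene nearest the end, where all of its tested peaks had their centres (relative position 0.50 or more).
The 25.2 kb peak at chr13:109435200-109460399 scored 715, 813 and 758 in Ctrl and 655, 615 and 631 in Kmt5b sKO. The 2 kb peak at chr13:109485200-109487199 scored 57, 73 and 54 in Ctrl and 44, 38 and 52 in Kmt5b sKO. The 2.6 kb peak at chr13:109639200-109641799 scored 78, 91 and 82 in Ctrl and 64, 67 and 67 in Kmt5b sKO. The first was the longest weaker peak of the gene. The 2.2 kb peak at chr13:109849400-109851599 scored 50, 64 and 51 in Ctrl and 45, 33 and 27 in Kmt5b sKO. The 5.4 kb peak at chr13:109858800-109864199 scored 250, 352 and 273 in Ctrl and 212, 186 and 227 in Kmt5b sKO. The 10.4 kb peak at chr13:109936600-109946999 scored 301, 370 and 312 in Ctrl and 189, 197 and 198 in Kmt5b sKO. The last, of 10.4 kb, had the widest separation in the gene. The 8.8 kb peak at chr13:109947600-109956399 scored 298, 327 and 289 in Ctrl and 266, 194 and 243 in Kmt5b sKO. In 8 other peaks of Pde4d every Kmt5b sKO library was higher than every Ctrl library.

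**Figure D4:**
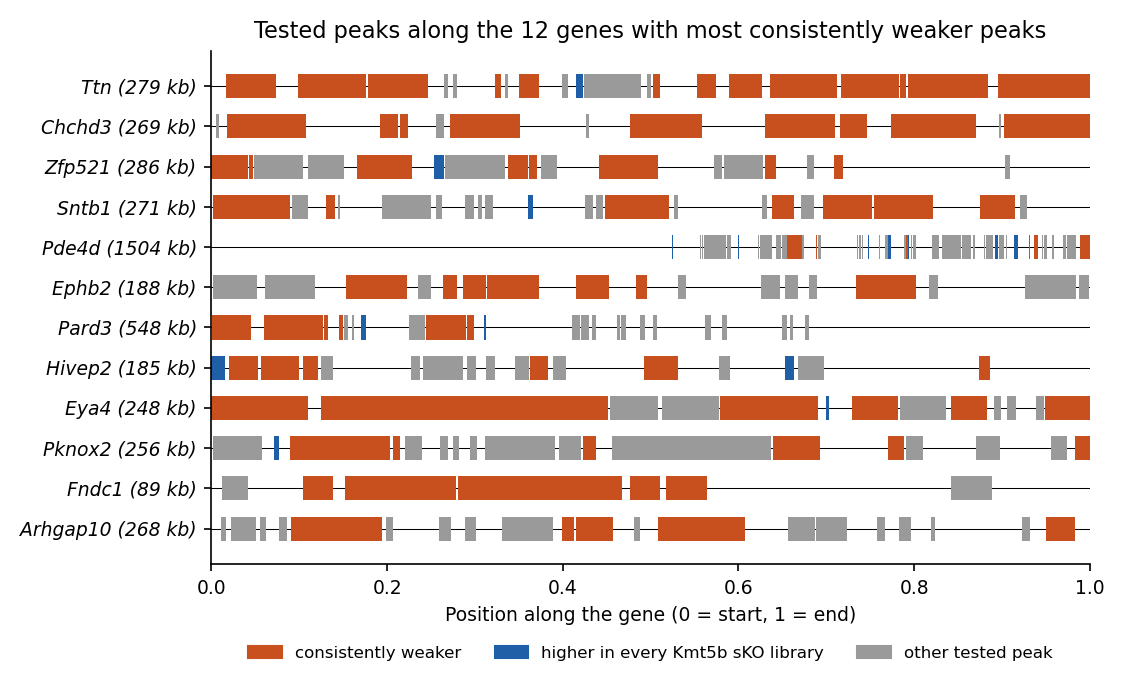
Tested peaks drawn to scale along the 12 genes with most consistently weaker peaks (x axis, fraction of the gene from start to end; gene length in brackets), without the 2 models that span many genes. Orange peaks were consistently weaker, blue peaks higher in every Kmt5b sKO library and grey peaks neither. Weaker peaks covered most of Eya4, Ttn and Chchd3, lay toward the start in Fndc1, and alternated with other peaks in Pknox2 and Arhgap10.

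The remaining genes with 5 or more weaker peaks are given by their counts of weaker peaks, and some of them by their sums. Ephb2, a receptor tyrosine kinase for ephrin-B ligands, had 7 of 17 peaks, with sums of 1495, 2069 and 1524 in Ctrl and 1229, 1241 and 1120 in Kmt5b sKO. Eya4, a co-activator of homeodomain factors that act early in myogenesis, had 6 of 13, with sums of 9522, 12617 and 9898 against 7370, 7389 and 7267. The largest single Eya4 peak was 80.8 kb long, overlapped no exon, and fell by 0.50 on the log2 scale, and the 27.4 kb peak next to the gene start fell by 0.97. Pard3, a cell polarity scaffold, had 6 of 23, and Hivep2 and Pknox2, a zinc finger and a homeodomain transcription factor, had 6 of 17 and 6 of 18. Fndc1, a fibronectin type III domain gene, had 5 of 7 and the deepest loss of this group, with a mean log2 fold change of −1.15 and sums of 1042, 1719 and 1215 against 640, 547 and 567. Arhgap10, a GTPase-activating protein, had 5 of 20 and included the largest loss of the whole set, an 8.6 kb peak near the gene end with 283, 329 and 230 in Ctrl and 85, 90 and 117 in Kmt5b sKO (log2 fold change −1.52). Tcf4, a basic helix-loop-helix factor, had 5 of 27, and Ncoa2, a nuclear receptor co-activator, 5 of 14.

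**Figure D5:**
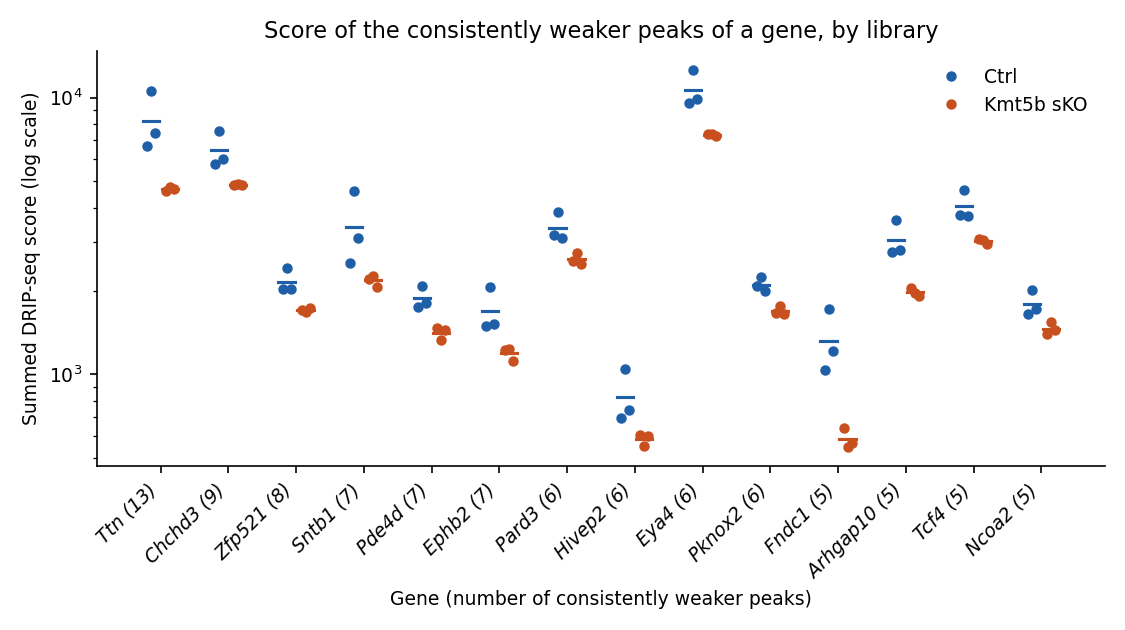
Summed score of the consistently weaker peaks of a gene (y axis, log scale) in each of 3 Ctrl (blue) and 3 Kmt5b sKO (orange) libraries, with the group mean as a line, for the 14 genes with most such peaks outside the 2 models that span many genes. The groups do not overlap in any gene, which the selection requires; the upper Ctrl point is replicate 2, and Fndc1 shows the widest gap, at 0.441 of the Ctrl mean.

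These sums cover the weaker peaks alone. Over all tested peaks of the same 14 genes, the Kmt5b sKO mean was between 0.474 of the Ctrl mean in Fndc1 and 0.939 in Pde4d, where the weaker peaks alone gave 0.441 and 0.751. Hivep2 had 0.918 over all its peaks and 0.706 over the weaker ones. The groups overlapped in the sums over all peaks in Pde4d, Hivep2 and Sntb1.

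Genes with 4 weaker peaks included Spats2l, Man2a1, Tln2, Cenpe, Pip4k2a, Stxbp5, Iqsec1, Daam1, Chn1, Prune2, Adgrl2, Fbn1, Cdh2 and Arid1b. Cenpe, the kinetochore motor of mitosis, was weaker in 4 of 5 peaks over 44.2 kb of a 61.1 kb gene, and these summed to 1621, 1833 and 1494 in Ctrl and 1131, 1288 and 1202 in Kmt5b sKO. Stxbp5, a syntaxin-binding protein of vesicle fusion, was weaker in 4 of 7, with sums of 3182, 3453 and 3061 against 2433, 2452 and 2570. In both genes the 3 Ctrl libraries were close together, unlike in Ttn. Tln2, the gene of the adhesion protein talin 2, is a long gene of which few peaks took part, with 4 of 25. Mean log2 fold changes in the genes named here ran from −0.61 in Spats2l to −0.31 in Arid1b, a subunit of the SWI/SNF chromatin remodeller.

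With 3 weaker peaks each stood Dtx4, Ccdc88c, Tbccd1, Parm1, Trak2, Mettl9, Psd3, Ebf3, Ncoa1, Cdk1, Homer1, Cox10, Ssbp2, Gphn, Gnai1, Hs2st1, Runx1, Polq, Zhx2, Pkn2, Ptbp2, Epb41l3, Ttc3, Tshz3, Rhbdd1, Arid5b and Rptor. Dtx4, a ubiquitin ligase of the Deltex family, lost most, with a mean log2 fold change of −0.90 and sums of 472, 750 and 514 in Ctrl against 268, 406 and 279 in Kmt5b sKO. Ccdc88c followed at −0.77, with 194, 326 and 208 against 147, 143 and 144. Cdk1, the kinase that drives entry into mitosis, was the shortest gene of the group at 17.8 kb and had 3 of 5 peaks weaker, with sums of 356, 354 and 324 against 241, 227 and 231, so that neither genotype varied much. Polq, the DNA polymerase of microhomology-mediated end joining, had 3 of 7 (919, 1116 and 891 against 730, 776 and 765). At the other end, Rptor, a subunit of mTORC1, averaged −0.21 over 3 of 20 peaks.

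The 12 genes in which every tested peak was weaker each had 2 tested peaks. They were Lrp12, Rad21, Lrrn1, Hif1a, Fbxw17, Plk4, Nupl1, Glce, Acta2, Ube2e3, Kctd9 and Senp1. Rad21 is a subunit of cohesin, Hif1a the oxygen-regulated transcription factor and Plk4 the kinase of centriole duplication. Their mean log2 fold changes ran from −0.74 in Lrp12 to −0.27 in Senp1. Genes with 1 weaker peak numbered 511, and the 5 with the largest loss were Eps15l1, Rictor, E2f2, D5Ertd579e and 4833422C13Rik. The Eps15l1 peak scored 144, 162 and 158 in Ctrl and 53, 80 and 80 in Kmt5b sKO, the Rictor peak 41, 63 and 51 against 18, 40 and 17, and the E2f2 peak 39, 78 and 48 against 22, 28 and 29. Rictor and E2f2 had low scores, and the Rictor groups were separated by 1 unit. The 10.6 kb peak of D5Ertd579e was the brightest of the 5, with 868, 1313 and 896 against 508, 580 and 484.

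Gene lists were counted by their tested peaks and read beside the 3.81% of all tested peaks and the number that the length classes of those peaks would give at the rates of all tested peaks. Genes of the contractile apparatus and its calcium control had 26 weaker peaks of 257 (10.1%, 15 at the rates of their length classes) in 11 genes, 13 of them in Ttn. The others with 2 were Acta2, Mybpc1 and Neb, and the median log2 fold change of all 257 peaks was 0.08. MuSC and myogenic regulators had 18 of 163 (11.0%, 10.3 at those rates), in 8 genes led by Eya4 (6) and Cdh2 (4), the gene of N-cadherin. Pax7, which marks these cells, had 2 of 8, and one of them was the weakest loss of the whole set, with 337, 369 and 342 in Ctrl and 333, 334 and 328 in Kmt5b sKO. Tead1, a transcription factor that binds Yap, had 2 of 21, and Mymk, the myoblast fusion factor, had its only tested peak weaker.

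Chromatin and transcription regulators had 29 weaker peaks of 472 (6.14%, 23.5 at the rates of their length classes), in 14 genes led by Ncoa2 and Tcf4 (5 each) and Arid1b (4). Splicing and RNA-binding factors had 17 of 206 (8.25%, 11.4 at those rates), in 12 genes, with 3 peaks in Ptbp2 and 2 each in Celf2, Mbnl1 and Mbnl2, all regulators of alternative splicing. Collagens and other extracellular matrix genes had 9 of 167 (5.39%, 7.76), all in Fndc1 (5) and Fbn1 (4), the gene of fibrillin 1, and no collagen gene held a weaker peak. The counts of these 5 lists lay above the numbers at the length rates, in some of them through few genes. Peaks of 1 gene are not independent, and the lists were chosen with earlier results known, so this common direction is only a description. Without Ttn the contractile list had 13 of 237, against 13.3 at the rates of the length classes. No test was made of these counts.

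Markers of other cell types that a MuSC culture may hold gave few tested peaks. Fibroblast and fibro-adipogenic markers had 0 weaker peaks of 3 (0.0815 at the rates of their length classes), endothelial markers 0 of 6 (0.0494), and immune markers had no tested peak. Smooth muscle and pericyte markers had 2 of 15 (13.3%, 0.606 at those rates), a larger ratio to the length rates than in any of the lists above. Both peaks lay in Acta2, which the contractile list also holds and which cultured myoblasts also express. The part of other cells in the losses was not tested.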

How the data were processed

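DRIP-seq with the S9.6 antibody was performed on cultured MuSCs, with 3 Ctrl and 3 Kmt5b sKO libraries grouped by the sample labels. The authors trimmed reads with Trimmomatic 0.39, aligned them to mm10 (GRCm38) with STAR 2.7.3a, removed duplicates with Picard 2.21.7 and called peaks against input with SICER (0.0.41 in the submitters' processing notes; the methods name this the Epic2 implementation). They unified the peaks of all samples and deposited 1 score per union peak and library, scaled by Drosophila spike-in reads and rounded. These scores are not read counts, and no count model was run. By the paper's reporting summary, every Kmt5b sKO library had fewer uniquely mapped reads than every Ctrl library. This is the same split of libraries as in the rule, and the part of depth in the weaker peaks was not tested.

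The members, gene lists and tests were chosen with earlier results of these data known. Peaks were selected on the 6 scores in the rule. Genes came from the table, with symbols, exons and other coding genes from GENCODE vM21 and sequence from GRCm38. Peak coordinates are printed as in the table, whose starts are multiples of 200; sequence windows are 1-based. The named genes were all genes with 3 or more weaker peaks, the 6 with most peak by peak, and the 5 single-peak genes with the largest loss; genes with 2 peaks were named only for complete coverage or list membership, after their values were seen. Position and composition were compared with other tested peaks weighted to 10 length classes. Intervals are Wilson (shares) or from order statistics (medians), at 95%, cover counting error only and treat peaks as independent. limma 3.58.1 in R 4.3.3 was fitted to log2(score + 1) with a variance trend over 25815 peaks, two-sided, with Benjamini-Hochberg adjustment, and was tested on simulated data. A call needed an adjusted p under 0.1 and a fold over 1.5. The methods call the libraries biological replicates. The lists were the 5 functional and 4 cell type lists given in the text. The results of 1 gene with 3 or more weaker peaks and of 1 further list are not reported here. Alternatives were other level filters, scalings, separations, annotations and length classes, X and Y, and leaving out each library. Python 3.11.15 with pandas 2.3.3 was used.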

Additional observations from a re-analysis of the deposited data

How the results depend on the processing

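The number of weaker peaks depended on how libraries were scaled. The spike-in scale gave 984. Giving each library the same total gave 3568, centring on the median tested peak 7640 and quantile normalization 4931, and the 984 were wholly contained in the first pair and shared 980 with the last. These scalings lowered the median of all tested peaks by 0.20, 0.46 and 0.36 on the log2 scale. Genes with 2 or more weaker peaks then numbered 666, 1420 and 939, of median length 99.9, 79.7 and 93.3 kb; median peak length was 5800 bp when centred and 3400 bp by quantiles, the exonic share 2.76% by quantiles, GC 43.2% at equal totals and 43.4% when centred, and soft-masked sequence 19%, 19.8% and 19.5%. limma lower calls were 805, 3103 and 1952, of which 540, 978 and 520 were weaker peaks. A lowest Ctrl score of 1.2 times the highest Kmt5b sKO score left 154 peaks and 15 genes of median length 161.3 kb, with 97.4% in gene bodies and 16.9% soft-masked. A mean score over 100 moved median length to 12400 bp and the exonic share to 7.60%, with 80 limma lower calls, 78 of them weaker peaks, and there 94.6% of weaker peaks and 94.96% of peaks of like length lay in gene bodies, the reverse of the order at the level filter of 30. Leaving out 1 library, which makes separation easier, gave 1020 to 1585 peaks (highest without Ctrl replicate 1), 171 to 273 genes, lengths of 5800 to 7400 bp, exonic shares of 4.25% to 5.75%, GC of 42.8% to 43.3% and soft-masked shares of 17.9% to 18.5%. limma lower calls were 82 to 326 and those among weaker peaks 73 to 218, the lowest of both without Ctrl replicate 2. Replicate numbers did not pair the libraries, and with a replicate block limma gave 223 lower calls, 184 of them weaker peaks. Weighting the other peaks to mean score in place of length (median length then 6200 bp), chosen after seeing the data, changes the comparison alone. It took their share in gene bodies from 91.5% to 87.3%, intergenic from 4.43% to 8.31%, over gene ends from 20.0% to 19.1% and the exonic share from 4.45% to 3.20%, and the gene end share of weaker peaks (22.3%, 19.8% to 24.96%) then lay above it. With 5 length classes the first was 90.9% and the last 4.12%. Leaving out models that hold 5 or more other coding genes, also chosen afterwards, gave 158 genes. Removing the level filter, including X and Y, GENCODE genes, other pseudocounts and no variance trend left counts within 1.5 times and the other values within their intervals.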

Other observations

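Cell cycle genes recurred among the weaker peaks. They were put in a list after the names of the weaker genes had been seen, so the counts below describe these genes and support nothing. Genes of S phase had 5 weaker peaks of 50 tested (10%, against 3.81% of all tested peaks and 1.59 peaks at the rates of their length classes), 1 each in Cdca7, E2f8, Rad51ap1, Tyms and Usp1. Genes of G2 and M phase had 19 of 84 (22.6%, 4.18 at those rates), in 14 genes. Cenpe held 4 and Cdk1 held 3. Single weaker peaks lay in Mki67, Kif11, Cdca2, Cdca8, Tacc3, Cks2, Ccnb2, Cenpa, Cenpf, Anln, Kif20b and Tmpo, which encode a proliferation marker, a spindle motor and other proteins of the mitotic apparatus, the nuclear envelope and its control. The median log2 fold change over all 84 tested peaks was −0.07, against 0.35 for all tested peaks, and 17 of the 84 were higher in every Kmt5b sKO library. By flow cytometry of cultured MuSCs, the paper reported an S phase share that was not significantly altered in Kmt5b sKO. It also reported slightly more Kmt5b sKO cells in G2 and M phase, and a reduced expansion of the culture. Whether the cells of these libraries differed in cell cycle phase was not tested.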
